A study of Mus musculus with 10 samples.

Results

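The genes described here are Myc, Irf4, Batf, Batf3, Jun, Junb, Fos, Fosl1, Fosl2 and Bach2. They were chosen by name, with earlier results of these data known, as were the gene lists used below. The 10 genes encode transcription factors known to act early after activation of T cells and in stressed or proliferating keratinocytes. All 10 were found among the 25814 genes listed for every library. AP-1 is a dimer of basic leucine zipper (bZIP) proteins, in which a Jun protein (JUN, JUNB or JUND) pairs with a Fos protein (FOS, FOSB, FOSL1 or FOSL2) or with BATF or BATF3. BATF binds DNA together with a Jun protein and IRF4, a factor induced by signals of the T cell receptor, whereas BACH2 competes for AP-1 sites and is known for keeping T cells in a resting state. MYC dimerizes with MAX and drives genes for ribosome biogenesis, nutrient uptake and cell growth. In the epidermis, Jun and Fos proteins are known for the control of proliferation, of the response to wounding and of the genes of the cornified envelope.

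Expression was measured by RNA-seq in 10 libraries from C57/B6 mice, which form 5 groups of 2. Keratinocytes were primary cells from the tails of adult mice, cultured alone or together with CD8+ T cells, which were washed off before lysis. CD8+ T cells were isolated from spleen with microbeads and pre-activated by plate-bound αCD3/CD28 antibodies (Abs) for 1 d, a treatment that all 3 T-cell groups shared. They were collected as activated T cells, or after 1 further d of culture in mixed medium, or after co-culture with keratinocytes. The labels name keratinocyte medium for the second of these groups, and the methods a 4:1 mix of keratinocyte SFM and X-VIVO medium. For the co-culture, the labels of the T cells and the study's text on these libraries give 1 d, and the deposited design text 1 h. By the labels the activated T cells had no further culture, so that medium and time after activation differ together in comparisons with them, whereas a legend of the study describes them as kept in X-VIVO medium for 1 d. No label says whether the 2 libraries of a group came from separate cultures or animals, and p-values measure the spread between these libraries only.

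Between 12864931 and 18019609 reads were counted on exons per library, and for a gene whose exons span 1 kb a count of 3 was worth 0.158 to 0.212 RPKM (reads per kilobase of exon, scaled to the mapped reads of the library). Lower values cannot be told apart from 0. Floors and intervals refer to counting error alone, as no molecular identifiers are described. The labelled cell types were checked by their markers. The sum of 10 keratinocyte markers (Krt5, Krt14 and others) was 14440 to 19020 RPKM in keratinocyte libraries, 8.99 to 25.9 in T cells without keratinocytes and 57.8 to 106 in co-cultured T cells. The sum of 10 T-cell markers (Cd3d, Cd8a and others) was 1377 to 2943 RPKM in T-cell libraries, but it was also 114 and 446 RPKM in keratinocytes alone and 146 and 793 RPKM in co-cultured keratinocytes (replicates 1 and 2). In these 4 libraries Cd3d reached 18.1 to 115 RPKM and Cd4 11.4 to 84.5 RPKM, while Cd8a, the defining marker of the added cells, was at 0.118 to 1.16 RPKM. Among the T cells, the 2 activated libraries differed in Cd4, with 16.8 RPKM in replicate 1 and 102 RPKM in replicate 2. The further cultured libraries lay between them, at 62.0 to 75.9 RPKM. The sum of 8 myeloid and dendritic markers was 12.04 and 63.99 RPKM in activated cells. It was 41.5 to 44.5 RPKM in mixed medium and 34.5 to 37.0 RPKM in co-cultured T cells. Replicate 1 of the activated cells was thus the lowest T-cell library in both. The sum of 6 B-cell markers was 30.1 and 32.7 RPKM in activated T cells, 45.0 and 92.9 in mixed medium, and 16.7 and 27.4 in co-cultured T cells. In bulk RNA, fewer cells of a type and less RNA per cell cannot be told apart.

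The genes lie on 8 chromosomes, at the following places of the GRCm38 genome as the tables give them. Myc (ENSMUSG00000022346) is at chr15:61985391-61990374, Irf4 (ENSMUSG00000021356) at chr13:30749226-30766976, Batf (ENSMUSG00000034266) at chr12:85686669-85709087, and Batf3 (ENSMUSG00000026630) at chr1:191097847-191108945. Jun (ENSMUSG00000052684) is at chr4:95049034-95052222 and Junb (ENSMUSG00000052837) at chr8:84974484-84978718, both on the minus strand, while the other 8 genes are on the plus strand. Fos (ENSMUSG00000021250) is at chr12:85473890-85477273, Fosl1 (ENSMUSG00000024912) at chr19:5447703-5455945, Fosl2 (ENSMUSG00000029135) at chr5:32135801-32157842, and Bach2 (ENSMUSG00000040270) at chr4:32238804-32586108. All are protein-coding, and 99.9% to 100% of their exon reads mapped to a single place.

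Promoter windows from RefSeq (GRCm38.p6, 250 bases before to 50 after a start site) were found for 8 of the 10 genes, all but Myc and Fosl1. The parts upstream of the first annotated exon are shown for Irf4, called as lower in both groups of further cultured T cells, for Junb, called in mixed medium, for Batf, the most abundant of the Fos and Batf partners in T cells, and for Jun and Fos, which were higher in keratinocytes. They run 5′ to 3′ on the strand of the gene, and capitals mark GGAAA on either strand (GGAAA or TTTCC), the core of sites for NFAT and other factors. The stretches of Irf4, Junb and Fos hold none, and the match in the window of Irf4 begins at the start site itself, just past its stretch.
Irf4, chr13:30748983-30749225, plus strand: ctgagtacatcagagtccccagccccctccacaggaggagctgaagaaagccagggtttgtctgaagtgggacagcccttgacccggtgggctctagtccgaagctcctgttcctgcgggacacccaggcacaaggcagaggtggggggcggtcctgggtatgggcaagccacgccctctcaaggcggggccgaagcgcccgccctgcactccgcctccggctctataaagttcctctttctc
Junb, chr8:84978749-84978998, minus strand: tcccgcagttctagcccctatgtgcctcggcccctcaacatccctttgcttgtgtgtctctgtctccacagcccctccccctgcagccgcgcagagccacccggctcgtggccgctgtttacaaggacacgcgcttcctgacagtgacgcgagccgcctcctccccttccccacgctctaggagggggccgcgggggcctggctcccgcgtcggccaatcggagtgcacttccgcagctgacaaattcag
Batf, chr12:85686470-85686668, plus strand: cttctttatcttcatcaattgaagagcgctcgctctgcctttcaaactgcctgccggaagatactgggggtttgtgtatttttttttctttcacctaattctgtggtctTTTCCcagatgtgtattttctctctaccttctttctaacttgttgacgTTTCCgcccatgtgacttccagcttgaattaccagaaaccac
Jun, chr4:95052223-95052472, minus strand: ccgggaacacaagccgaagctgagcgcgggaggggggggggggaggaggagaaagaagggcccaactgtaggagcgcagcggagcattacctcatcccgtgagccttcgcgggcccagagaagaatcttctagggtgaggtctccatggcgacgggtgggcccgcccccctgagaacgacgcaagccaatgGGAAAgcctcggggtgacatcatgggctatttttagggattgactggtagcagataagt
Fos, chr12:85473640-85473889, plus strand: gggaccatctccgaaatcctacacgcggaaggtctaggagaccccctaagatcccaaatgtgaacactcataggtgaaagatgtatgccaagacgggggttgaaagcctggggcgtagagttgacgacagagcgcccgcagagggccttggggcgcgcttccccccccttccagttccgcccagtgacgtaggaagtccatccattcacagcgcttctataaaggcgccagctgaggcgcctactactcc

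The motifs below were searched on both strands of the full windows. GGAAA was found in 5 of the 8 windows (Irf4, Batf, Batf3, Jun and Bach2) and in 61.3% of all 32851 windows. The E-box CACGTG, the site bound by MYC and MAX, was found in 1 of the 8, Batf3, and in 7.15% of all windows. The AP-1 site TGANTCA (7.81% of all windows), the CRE site TGACGTCA (1.79%) and the NF-kB site GGGANTTCC (1.68%), which with T at N overlaps TTTCC, were found in 0 of the 8. The windows of Batf3, Fosl2 and Bach2 lie within the gene coordinates given above. In those of Batf3 and Fosl2, the 250 bases before the start site overlap exons of the same gene. A match is a description of the letters only, and the absence of one says nothing on the binding of a factor.

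The cell types differed in which of these genes they expressed. Jun, Fos and Fosl2 were higher in keratinocytes alone than in activated T cells, and Irf4, Batf3 and Bach2 were lower. This made 6 of 10 genes at an adjusted p under 0.05 (edgeR's quasi-likelihood test with Benjamini-Hochberg adjustment over 13394 genes, all 10 libraries in the fit), where 35.5% of all genes passed. Against T cells in mixed medium 8 of 10 passed, with Myc, Junb and Fosl1 in addition to Jun, Fos and Fosl2 on the keratinocyte side and Batf3 and Bach2 on the other, where 35.2% of all genes passed. The plot of the levels of all 10 genes shows these patterns by library.

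**Figure D1:**
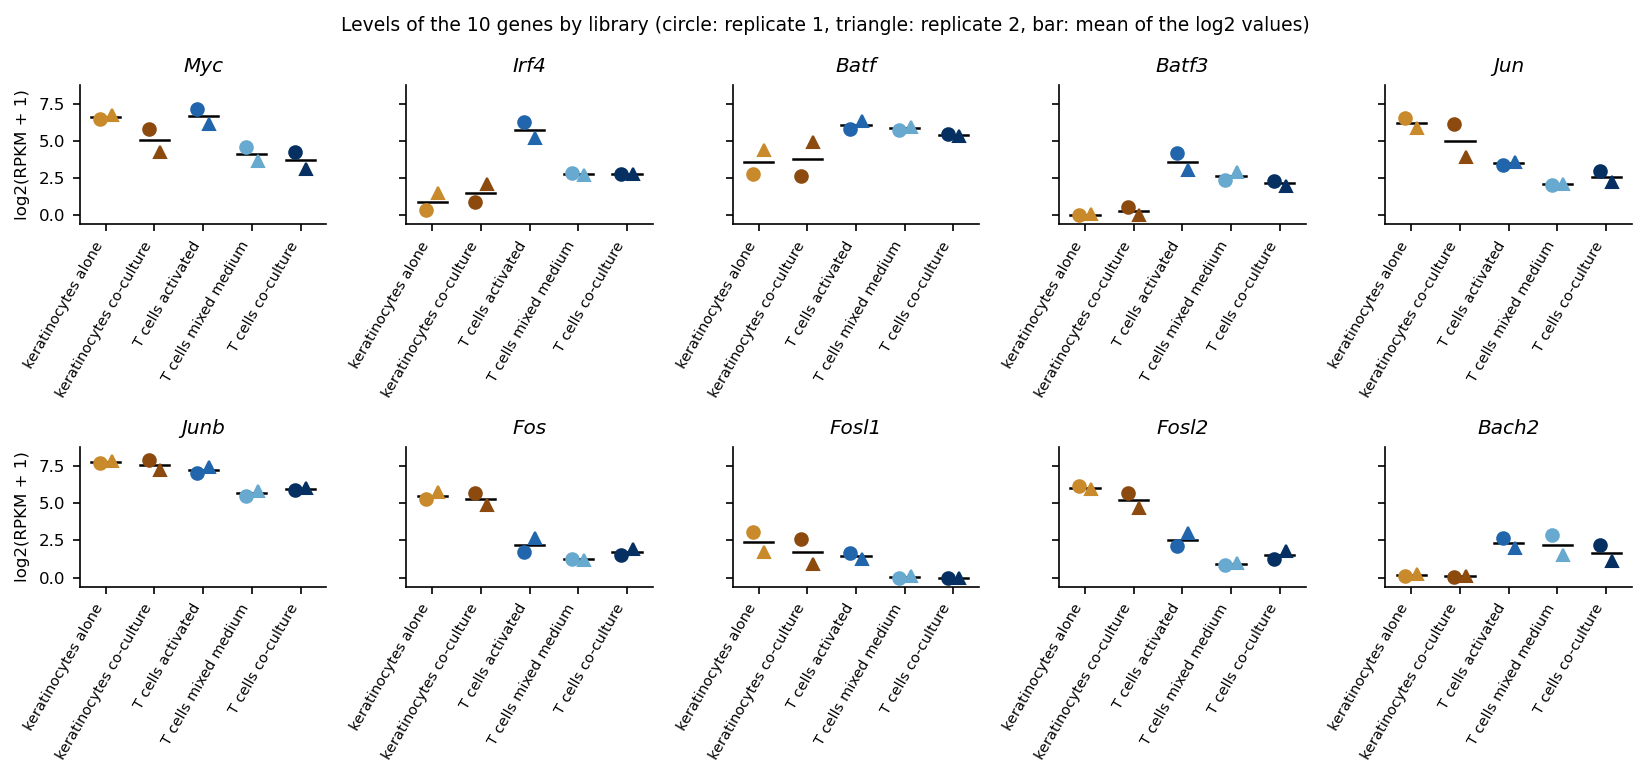
Level of each gene as log2(RPKM + 1) in the 10 libraries, by group; circles are replicate 1, triangles replicate 2 (in both groups of further cultured T cells a name only), bars the mean of the log2 values. Batf3 is at or near 0 in keratinocytes, and Irf4 is lower there (0.269 to 3.24 RPKM) than in every T-cell library. Fos and Fosl2 are highest in keratinocytes, and Fosl1 is at or near 0 in T cells after further culture.

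Jun reached 76.3 ± 26.1 RPKM (mean ± SD, n = 2 in each group here and below) in keratinocytes alone and 10.4 ± 1.09 RPKM in activated T cells, a log2 fold change of 3.02 ± 0.64 (SE, adjusted p = 0.00750 by edgeR). Without replicate 1 of the activated T cells, the difference of Jun was 2.78 on the log2 scale with an adjusted p of 0.0652. Fos, the classical partner of JUN, had a mean of 45.5 ± 11.4 RPKM in keratinocytes alone against 3.79 ± 2.09 RPKM in activated T cells (log2 fold change 3.72 ± 0.55, adjusted p = 0.00142 by edgeR). Fosl2, a Fos protein that persists after the transient rise of FOS, was at 65.6 ± 7.32 against 5.15 ± 2.64 RPKM (log2 fold change 3.80 ± 0.57, adjusted p = 0.00156 by edgeR). For Fos and Fosl2 the keratinocyte libraries were above all T-cell libraries. Their means in keratinocytes alone differed from activated T cells by 12.01 and 12.7 fold. These 2 groups did not overlap, in either direction, for 79.31% of 8292 genes that reached 5 RPKM. Junb was the most abundant of the 10 genes in all keratinocyte libraries, at 149 to 242 RPKM, and both libraries of keratinocytes alone were above both of activated T cells, but this difference did not pass the test (log2 0.72 ± 0.35, adjusted p = 0.139 by edgeR). Fosl1, known as a gene of migrating and wounded keratinocytes, was low in both cell types, at 4.76 ± 3.52 RPKM in keratinocytes alone and 1.79 ± 0.63 RPKM in activated T cells.

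Irf4 reached a mean of 56.8 ± 28.9 RPKM in activated T cells but 1.03 ± 1.08 RPKM in keratinocytes alone, a ratio of 55.0 (log2 fold change -5.60 ± 1.01, adjusted p = 0.00357 by edgeR). Against T cells in mixed medium the Irf4 difference was -2.55 ± 0.89 on the log2 scale with an adjusted p of 0.0518, while DESeq2 gave 0.0115. Batf3 had 234 and 83 reads in activated T cells but 0 and 1 in keratinocytes alone, a ratio of 366 per mapped read with a counting interval of 65.2 to 14490 (95%, exact). Bach2 had a mean of 4.23 ± 1.80 RPKM in activated T cells against 0.137 ± 0.068 RPKM in keratinocytes alone (log2 fold change -4.77 ± 0.87, adjusted p = 0.00374 by edgeR). Batf stood between these and the genes of both cell types. It was at 6.01 and 19.99 RPKM in keratinocytes alone, below 55.2 and 81.2 RPKM of activated T cells (ratio of means 5.25), with an adjusted p of 0.0617 by edgeR and of 0.0198 by DESeq2. In keratinocytes, Batf and Irf4 were highest in the same 2 libraries, both replicates 2, in which the sum of the T-cell markers was highest, and the part of T-cell RNA in these values was not tested.

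On the RPKM scale, which allows levels of genes of different length to be compared, the partners of the Jun proteins were of a different kind in the 2 cell types. In keratinocytes alone, Fosl2 took 44.1% to 56.6% of the summed RPKM of Fos, Fosb, Fosl1, Fosl2, Batf and Batf3, and Fos 30.0% to 39.1%. Batf took 4.81% and 14.6% there, and 4.57% and 35.7% in co-cultured keratinocytes. In the 6 T-cell libraries Batf took 68.0% to 88.3% of this sum. Among the Jun genes, Junb led in keratinocytes with 48.3% to 64.9% of the sum of Jun, Junb and Jund. In T cells Jund, known as the Jun gene that is expressed without stimulation, led with 49.9% to 75.8%, and Jun took 1.58% to 3.36%. These are shares of RNA and say nothing on the amounts of protein dimers.

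**Figure D2:**
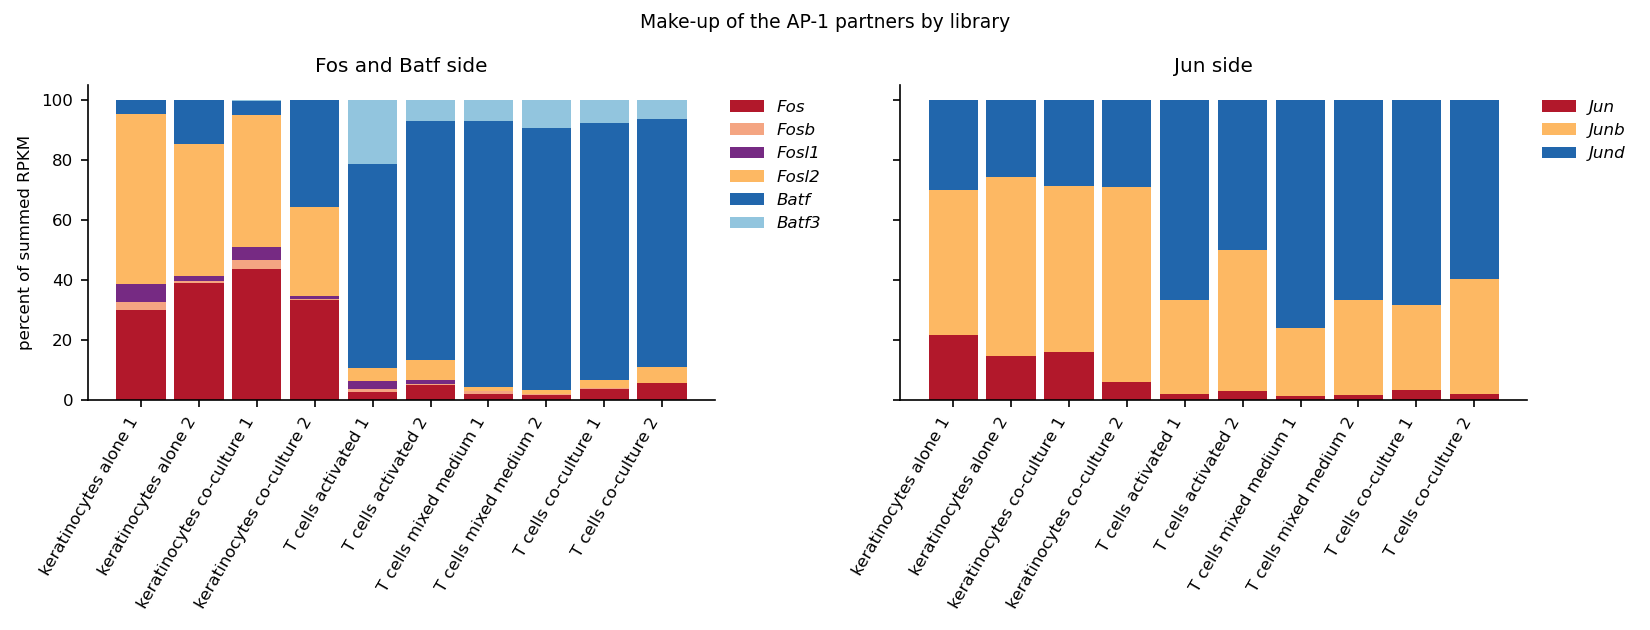
Share of each gene in the summed RPKM of the Fos and Batf genes (left) and of the Jun genes (right), in percent, for each of the 10 libraries. Fosl2 and Fos fill most of the left bars of keratinocytes alone and Batf those of T cells, with 68.0% or more in each T-cell library; on the right Junb leads in keratinocytes and Jund in T cells.

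Upon further culture of pre-activated T cells in mixed medium, 4 of the 10 genes fell and none rose. The fall was seen in Myc, Irf4, Junb and Fosl2, at an adjusted p under 0.05 by edgeR in a fit of the 6 T-cell libraries, where 6.54% of the 11863 genes tested passed, 501 lower and 275 higher. On the log2 scale the 10 genes had a median difference of -1.48, and all genes one of -0.0146. With library size in place of TMM the median of all genes shifted to -0.125 here, to -0.172 for co-cultured against activated T cells and from 0.143 to -0.0204 for keratinocytes alone against activated T cells. The direction of the called genes was the same under both scalings.

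Myc was at 144.5 and 69.1 RPKM in activated T cells (replicates 1 and 2) and at 22.8 and 11.5 RPKM in mixed medium. Both libraries in mixed medium were below both activated ones, although the libraries within each group differed as well. Groups without overlap were common here, with 63.98% of 6841 genes that reached 5 RPKM, in either direction. The group means differed by 6.22 fold, and the log2 fold change was -2.496 ± 0.51 (adjusted p = 0.0313 by edgeR). Irf4 was at 77.2 and 36.4 RPKM in activated T cells and at 6.11 and 5.65 RPKM in mixed medium. It showed the largest fall of the called genes, 9.66 fold of the means and -3.11 ± 0.40 on the log2 scale (adjusted p = 0.0122 by edgeR). Junb, a Jun protein that pairs with BATF in T cells, was at 130.7 and 168.9 RPKM in activated cells and at 44.9 and 55.2 RPKM in mixed medium. The groups of Junb did not overlap (log2 fold change -1.43 ± 0.34, adjusted p = 0.0455 by edgeR). Fosl2 was at 3.29 and 7.02 RPKM before and at 0.812 and 0.993 RPKM after culture in mixed medium, again without overlap (log2 fold change -2.38 ± 0.56, adjusted p = 0.0474 by edgeR).

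These calls rest on all libraries. Myc lost its call without replicate 1 of the activated cells (adjusted p = 0.148) and without replicate 1 or 2 in mixed medium (0.0781 and 0.160), and Irf4 without replicate 1 or 2 in mixed medium (0.0620 and 0.0751). Junb lost it without any 1 of the 4 libraries (0.112 to 0.229) and when only these 4 libraries were fitted (0.0625), and Fosl2 without any 1 of the 4 (0.0815 to 0.190) and by limma on log2(RPKM + 1) (0.0519) and log2(RPKM + 0.1) (0.0545). In every one of these fits all 4 genes had a negative fold change.

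The other 6 genes did not pass the test. Jun was at 9.63 and 11.2 RPKM in activated cells and at 3.15 and 3.42 RPKM in mixed medium, without overlap (log2 fold change -1.52 ± 0.41, adjusted p = 0.0673 by edgeR and 0.0104 by DESeq2). Fos was at 2.31 and 5.27 against 1.35 and 1.32 RPKM (log2 fold change -1.38 ± 0.65, adjusted p = 0.232 by edgeR). Batf3, which shares its partners with BATF, was at 17.4 and 7.19 against 4.28 and 6.66 RPKM (log2 fold change -0.98 ± 0.62). For Fos and Batf3, too, both libraries in mixed medium were below both activated ones. Fosl1 was counted with 64 and 33 reads in activated cells and with 0 and 3 reads in mixed medium, a ratio of 33.9 per mapped read with a counting interval of 11.3 to 167. Its adjusted p was 0.140 by edgeR, and 0.0146 and 0.0193 by limma with a pseudocount of 1 and 0.1. By contrast, Batf was the most abundant of the 10 genes by RPKM in both libraries in mixed medium, with 55.2 and 81.2 RPKM in activated cells and 52.1 and 61.6 RPKM after it, and the groups overlapped (log2 fold change -0.12 ± 0.35, adjusted p = 0.884 by edgeR). Bach2 was at 5.50 and 2.95 against 6.42 and 1.83 RPKM, so that the libraries of a group differed more than the groups.

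**Figure D3:**
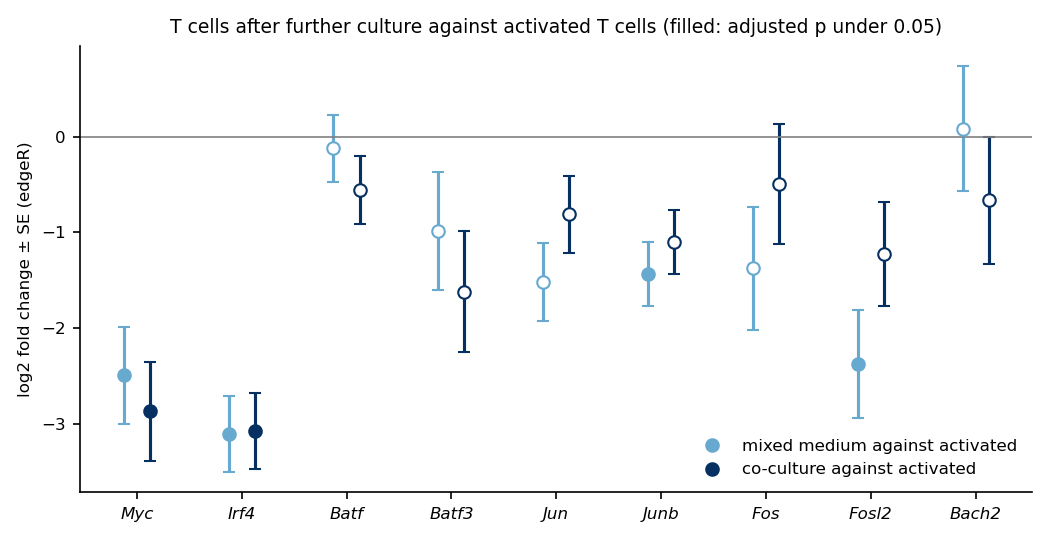
Log2 fold change with its standard error (edgeR, 6 T-cell libraries) for T cells in mixed medium and in co-culture, each against activated T cells; filled points passed an adjusted p of 0.05. Fosl1 is left out because its counts of 0 give no bounded fold change; Irf4 and Myc lie lowest, and both comparisons share the activated libraries.

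In T cells co-cultured with keratinocytes, Irf4 and Myc were again lower than in activated T cells, and they were the 2 of 10 genes that passed the test, where 10.3% of all genes passed. Irf4 was at 5.84 and 5.74 RPKM in co-cultured cells, 9.81 fold below the mean of the activated cells (log2 fold change -3.08 ± 0.40, adjusted p = 0.00693 by edgeR). Myc was at 17.9 and 7.91 RPKM, 8.27 fold below (log2 fold change -2.87 ± 0.52, adjusted p = 0.0156 by edgeR). Without replicate 1 of the activated T cells the adjusted p of Myc was 0.0760, while Irf4 passed in all 12 alternative fits (adjusted p of at most 0.0294). Junb was at 57.6 and 64.7 RPKM, below both activated libraries, and its adjusted p was 0.0741 by edgeR and 0.0319 by DESeq2. Of 6930 genes that reached 5 RPKM, 66.12% had no overlap between co-cultured and activated T cells, in either direction. Fosl1 was not counted with a single exon read in co-cultured cells. Against the floor of 3 reads per library it was at least 14.9 fold lower than in activated cells, with an adjusted p of 0.0621 by edgeR and of 0.00694 by DESeq2. Batf was at 43.4 and 38.6 RPKM, below 55.2 and 81.2 RPKM of the activated cells, with a difference of -0.55 ± 0.35 on the log2 scale that did not pass (adjusted p = 0.347 by edgeR). Both comparisons share the same activated libraries and are not independent of each other.

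Co-cultured T cells were also compared with T cells in mixed medium, which by the study's text differ from them by the keratinocytes. Given the medium named in the labels and the 1 h of the deposited design text, medium and time may differ as well. Of the 10 genes 0 passed the test, and 0 were under an unadjusted p of 0.05, where 0.261% of all genes (31, all higher in co-culture) passed. DESeq2, limma, and every fit with 1 library left out also called 0 of 10. Irf4 overlapped, at 6.11 and 5.65 RPKM in mixed medium and 5.84 and 5.74 RPKM in co-culture (log2 fold change 0.03 ± 0.37). Myc overlapped as well (log2 fold change -0.37 ± 0.49). Jun was at 6.84 and 3.75 RPKM in co-culture against 3.15 and 3.42 RPKM in mixed medium, Fos at 1.93 and 2.78 against 1.35 and 1.32 RPKM, and Fosl2 at 1.41 and 2.42 against 0.812 and 0.993 RPKM. Jun, Fos, Fosl2 and Junb had higher values in both co-cultured libraries, and Batf and Batf3 lower ones. Each adjusted p was 1 by edgeR. These groups likewise did not overlap, in either direction, for 26.57% of 6243 genes that reached 5 RPKM. Krt14, a keratin of basal keratinocytes, was at 61.6 and 16.8 RPKM in co-cultured T cells and at 0.419 and 1.06 RPKM in mixed medium, and the part of keratinocyte RNA in the values of Jun, Fos and Fosl2 was not tested.

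Genes that are known to be driven by MYC were low in further cultured T cells as well. Of 20 such genes, 15 fell and 0 rose in mixed medium, with a median log2 fold change of -2.40, and 17 fell and 0 rose in co-culture, with a median of -2.56, against medians near 0 for all genes (-0.0146 and -0.0125), of which 6.54% and 10.3% passed. All 20 had a negative fold change in both comparisons. In keratinocytes alone against activated T cells, 18 of the 20 were called as lower and 0 as higher (median -2.38), where 35.5% of all genes passed. Myc itself did not pass there (log2 fold change 0.02 ± 0.54, adjusted p = 0.985 by edgeR), so the list did not follow the level of Myc in that comparison. Srm, the spermidine synthase, had means of 285, 14.2 and 5.70 RPKM in activated, mixed-medium and co-cultured cells (log2 fold changes -4.16 ± 0.46 and -5.44 ± 0.49). Nop58, a protein of small nucleolar RNPs, was at 45.6, 5.11 and 3.11 RPKM (-3.01 ± 0.35 and -3.70 ± 0.36). In mixed medium Slc7a5, a transporter of large amino acids, and Polr1b, a subunit of RNA polymerase I, fell by 3.11 and 2.99 on the log2 scale. In co-culture Tfrc, the transferrin receptor, and Cad, an enzyme of pyrimidine synthesis, fell by 3.96 and 3.34. The number called depended on single libraries. In mixed medium it was 4 without replicate 1 of the activated cells, 1 without replicate 1 in mixed medium and 0 without replicate 2, with medians of -1.77, -2.51 and -2.27, while it was 13 without replicate 2 of the activated cells. In co-culture it was 8 without replicate 1 of the activated cells and 16 without replicate 2, and 12 and 10 without replicate 1 or 2 of the co-cultured cells, with medians of -2.82 to -2.08.

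Of 11 partners, relatives and antagonists of MYC, 9 could be tested in T cells. In mixed medium and in co-culture 1 of the 9 was called, where 6.54% and 10.3% of all genes passed. Mxd3, an antagonist that pairs with MAX, rose from 2.83 RPKM in activated cells to 23.3 RPKM in mixed medium and to 21.3 RPKM when co-cultured (log2 fold changes 3.19 ± 0.49 and 3.07 ± 0.49, adjusted p = 0.0164 and 0.0107 by edgeR), and it was the only gene of this list that was called. The call of Mxd3 depended on single libraries. It was lost in both comparisons without replicate 1 of the activated cells, and in mixed medium also without either library of that group. Of 16 other AP-1 and bZIP factors, 15 were tested. In mixed medium 5 fell and 1 rose, where 6.54% of all genes passed, and in co-culture 2 fell and 1 rose, where 10.3% passed. Over 12 alternatives 0 to 6 were called lower in mixed medium (0 without replicate 1 or without replicate 2 of that group) and 0 to 5 in co-culture (0 without replicate 1 of the activated cells), and 0 to 2 were called higher in each. Atf3, a stress-induced factor, fell from 15.2 to 0.424 RPKM in mixed medium and to 1.40 RPKM in co-culture (log2 fold changes -4.99 ± 0.59 and -3.21 ± 0.54), and Nfil3 fell from 28.4 to 5.70 and 5.77 RPKM. Jdp2, a repressor that pairs with Jun proteins, rose from 1.12 to 5.80 and 6.19 RPKM (adjusted p = 0.0352 and 0.0223 by edgeR). Atf4, a factor of the response to a lack of amino acids, fell from 111 to 20.1 RPKM in mixed medium, and so did Maff and Mafg, small Maf proteins, by 3.23 and 1.91 on the log2 scale (named after their values were seen). None of these genes passed in co-culture against activated T cells. Atf4 and Mafg had negative log2 fold changes there (-1.71 and -1.435). Maff did not, with 0.198 RPKM in mixed medium but 3.21 RPKM in co-culture (log2 fold change 0.83 ± 0.65 against activated cells, adjusted p = 0.451 by edgeR).

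Of 15 genes known to be bound by IRF4 and BATF in T cells, 3 fell and 0 rose in both comparisons, where 6.54% and 10.3% of all genes passed. The 3 were Gzmb, Il2ra and Irf8, and the list medians were -0.49 and -0.34. Without replicate 2 of the activated cells the medians were positive, at 0.85 in mixed medium and 1.00 in co-culture. Over 12 alternatives 0 to 3 genes of this list were called lower in mixed medium (0 without replicate 2 in mixed medium) and 1 to 3 in co-culture (1 without replicate 1 of the activated cells). Gzmb, the cytotoxic protease granzyme B, had means of 2467, 154 and 482 RPKM in activated, mixed-medium and co-cultured cells (log2 fold changes -3.84 ± 0.42 and -2.13 ± 0.39). Il2ra, the high-affinity chain of the IL-2 receptor, was at 86.2, 7.93 and 10.8 RPKM (-3.29 ± 0.34 and -2.80 ± 0.33). The other 12 genes did not pass. Of 6 NF-kB genes, 0 passed in mixed medium (1 at an unadjusted p under 0.05), and 1, Nfkb2, fell in co-culture, from 43.6 to 12.3 RPKM, beside the same shares of all genes. Of 15 genes known as AP-1 targets in keratinocytes, 9 were tested in T cells. In co-culture 4 rose and 1 fell against activated T cells, where 10.3% of all genes passed. Plaur, the urokinase receptor, rose from 4.80 RPKM in activated cells to 24.9 RPKM in co-culture. Sprr1a, Sprr1b and Krt6a were called as higher in co-cultured T cells than in both other T-cell groups, at 367, 51.1 and 29.1 RPKM. In co-cultured keratinocytes their means were 382, 164 and 5738 RPKM, so that these genes did not share 1 proportion between the cell types. The sum of keratinocyte markers was 57.8 to 106 RPKM in co-cultured T cells and 15300 to 19020 RPKM in co-cultured keratinocytes. The part of keratinocyte RNA in these values was not tested.

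**Figure D4:**
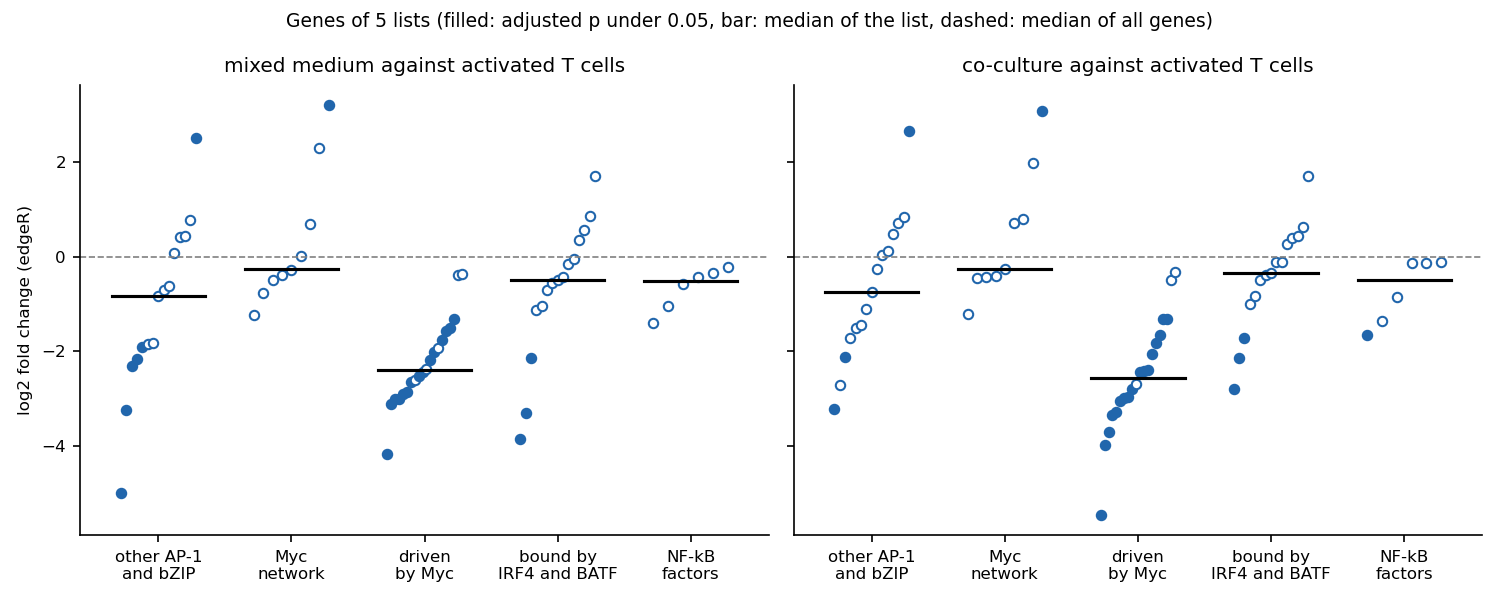
Log2 fold change (edgeR) of the tested genes of 5 lists in T cells in mixed medium (left) and in co-culture (right), each against activated T cells; filled points passed an adjusted p of 0.05, bars are list medians, the dashed line is the median of all genes. The genes driven by Myc lie lowest, with medians of -2.40 and -2.56, and the other lists spread to both sides of 0 except for the NF-kB factors.

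In keratinocytes, Myc, Jun, Fosl1, Fosl2 and Bach2 had lower values after co-culture with T cells in each replicate number, and Irf4 higher ones. None of these differences passed the test. The labels tie the numbers to no shared culture, and the share of all genes with the same direction in both was not counted. Of the 9 genes tested 0 were called, 0 were under an unadjusted p of 0.05, and 0% of the 12515 genes tested passed by edgeR (901 genes were under an unadjusted p of 0.05), while DESeq2 called 186 genes and again 0 of the 9. Batf3 was not tested, its reads being 0 and 1 in cells alone and 6 and 0 after co-culture.

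Myc had 86.4 and 105.2 RPKM in replicates 1 and 2 of keratinocytes alone, and 54.9 and 18.7 RPKM after co-culture. Both co-cultured libraries were below both others, by 1.57 fold in replicate 1 and 5.64 fold in replicate 2, and the log2 fold change was -1.35 ± 0.54 (unadjusted p = 0.0569, adjusted p = 0.658 by edgeR). Fosl2 was at 70.8 and 60.5 RPKM alone and at 51.8 and 25.1 RPKM after co-culture, also without overlap (log2 fold change -0.72 ± 0.41, adjusted p = 0.658 by edgeR). Of 7530 genes that reached 5 RPKM, 47.26% had no overlap between the 2 keratinocyte groups, in either direction. Jun was at 94.7 and 57.8 RPKM alone and at 70.6 and 13.97 RPKM after co-culture. Its groups overlapped, since replicate 1 after co-culture was above replicate 2 alone (log2 fold change -0.82 ± 0.76). Fosl1 was at 7.25 and 2.27 RPKM alone and at 5.01 and 0.852 RPKM after co-culture, with overlap. For these 4 genes the lowest value was that of replicate 2 of the co-cultured keratinocytes. Without replicate 1 of the co-cultured keratinocytes, which leaves replicate 2 as the only library of its group, Myc (-2.24, adjusted p = 0.0180) and Jun (-2.31, adjusted p = 0.0216) were among 1164 genes called of 13113.

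Junb and Fos went in opposite directions in the 2 replicate numbers. Junb was at 212.1 and 233.9 RPKM alone and at 242.0 and 148.9 RPKM after co-culture, and Fos at 37.5 and 53.6 RPKM alone against 51.4 and 28.3 RPKM after co-culture. Batf was at 6.01 and 20.0 RPKM alone and at 5.37 and 30.3 RPKM after co-culture, and Irf4 at 0.269 and 1.80 RPKM alone and at 0.832 and 3.24 RPKM after co-culture. For Batf and Irf4 the replicates of a group differed more than the groups, and so did the sum of T-cell markers given above. Bach2 was low, with 4 to 28 exon reads in the 4 libraries. None of the 6 gene lists held a called gene in keratinocytes, among them the 20 genes driven by MYC (median 0.48 on the log2 scale, 1 at an unadjusted p under 0.05 by edgeR) and 12 tested AP-1 targets (median -0.70, 4 at an unadjusted p under 0.05).

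**Figure D5:**
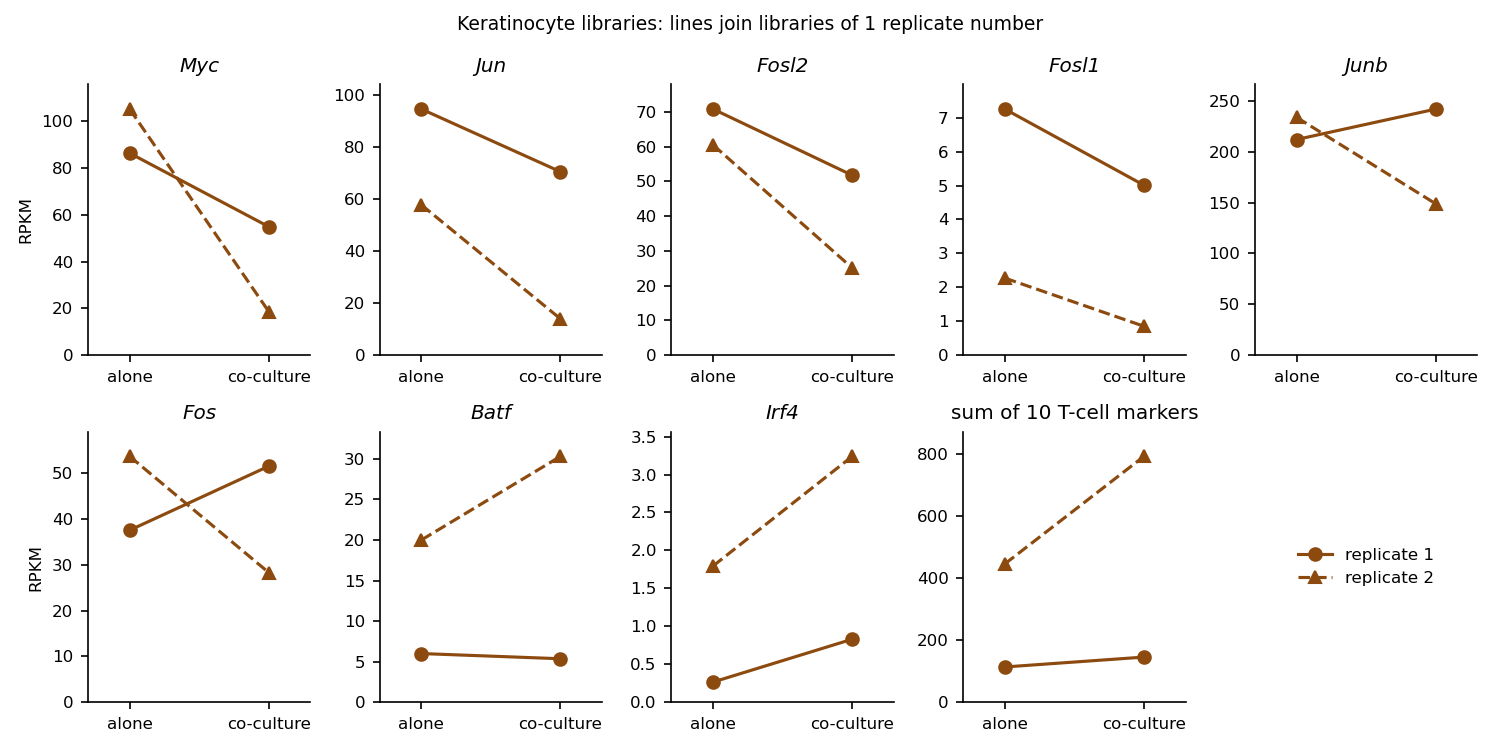
RPKM of 8 of the genes and of the sum of 10 T-cell markers in keratinocytes alone and after co-culture; solid lines with circles are replicate 1, dashed lines with triangles replicate 2, joined by their number only, which the labels do not tie to a shared culture. Myc, Jun, Fosl2 and Fosl1 are lower after co-culture in both numbers, Junb and Fos cross, and Batf and Irf4 are higher in replicate 2, as is the marker sum.

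Whether co-culture acted differently on the genes of both cell types was tested as an interaction in a fit of 8 libraries (13202 genes, of which 0.576% passed). Of the 10 genes 0 passed, and 1 was under an unadjusted p of 0.05, while DESeq2 and limma called 0 of 10. This was Fosl2, with lower values in both co-cultured keratinocyte libraries and higher values in both co-cultured T-cell libraries (difference of the log2 fold changes -1.89 ± 0.61, unadjusted p = 0.0166, adjusted p = 0.476 by edgeR).

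Bach2 had many reads on introns. They made up 31.6% (95% Wilson interval 29.0% to 34.3%) of the 1200 Bach2 reads in replicate 1 of activated T cells and 72.4% (70.0% to 74.7%) of 1370 reads in replicate 2. In mixed medium these shares were 27.0% and 60.6%, and in co-culture 36.8% and 71.3%. In each T-cell group 1 library had 145 to 378 exon reads of Bach2 and the larger share of intron reads, and the other had 489 to 881 exon reads. Over whole libraries intron reads made up 1.84% to 4.26%, and whether intron reads go with the Bach2 level was not tested. For Myc, Irf4, Jun and Junb, the share was at most 4.33% in any library with 50 or more reads of the gene. Jun is annotated as 1 exon, so that it could have no intron reads. In such libraries the share reached 26.4% for Batf3, 22.6% for Fos, 20.0% for Fosl1, 15.2% for Batf and 5.75% for Fosl2. Of Fosl1, 17 reads in replicate 2 of the co-cultured T cells were all in introns, with 0 on exons.

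The genes whose levels were most like those of Myc across the 10 libraries, by Pearson's r of log2(RPKM + 1) among 8744 genes at 5 or more RPKM in a group, were Hsp90b1 (r = 0.990), Neurl4 (0.987) and Eprs (0.975). For Irf4 they were Lta (0.995), Il2ra (0.992) and Prf1 (0.991), genes of a cytokine, a cytokine receptor and the cytotoxic protein perforin. Like Irf4, Lta was highest in activated T cells with 70.4 RPKM and had means of 6.19 and 7.76 RPKM in the other T-cell groups. For Batf they were Icam2 (0.984), Slc39a4 (0.982) and Cd82 (0.981), and for Fosl1 Slc30a9 (0.982) and Lpgat1 (0.981). These values describe 10 libraries that share cell types, cultures and depth, and no test was made of them.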

How the data were processed

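The 10 libraries were assigned to 5 groups by the labels of the samples. The authors prepared poly(A) libraries, sequenced single-end reads and aligned them in the CLC Genomics Workbench to GRCm38 with its default parameters. The annotation release and whether counting used strand are not given in the sources used here. The authors deposited counts of reads on the exons and introns of each gene, without normalization, and RPKM values.

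The members and gene lists were chosen with earlier results of these data known. Exon reads were fitted with edgeR 4.0.16 (R 4.3.3) by filterByExpr, TMM, glmQLFit and glmQLFTest, with Benjamini-Hochberg adjustment over all tested genes and calls under 0.05. The SE is the size of the fold change divided by the square root of F. Keratinocytes (4 libraries) and T cells (6 libraries) had a fit each, cell types were compared over all 10 libraries, and the interaction over 8. Named are all 10 members, up to 4 called genes of each list with the largest change and at least 5 RPKM in a group, the 3 genes most like a member, and markers. Items withheld for evaluation are not reported here. The fits were tested on simulated data.

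Other settings were DESeq2 1.42.0, limma 3.58.1 after adding 1 or 0.1 to RPKM, scaling by library size, no filter, a minimum of 10 counts throughout, unique reads, a block for the replicate number, other sets of libraries, and each library left out. Tables and figures were made in Python 3.11.15. Replicates of a group differed by a mean chi-square of 94.2 to 209 per gene and were treated as separate libraries. Protein sequences were not analysed here.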

Additional observations from a re-analysis of the deposited data

Results flagged for a closer look

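Fosl2 had lower values in both co-cultured keratinocyte libraries than in keratinocytes alone, and higher values in both co-cultured T-cell libraries than in T cells in mixed medium, which are opposite directions of the same contrast in the 2 cell types. The difference of the log2 fold changes was -1.89, and the interaction test of edgeR gave an adjusted p of 0.476, so that a difference between the cell types is not shown. Fosl2 was at 1.91 ± 0.72 RPKM in co-cultured and 0.903 ± 0.13 RPKM in mixed-medium T cells (n = 2 each), against 65.6 ± 7.32 RPKM in keratinocytes alone.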

How the results depend on the processing

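Of 843 values of single genes under other settings, 747 kept their direction and their side of the threshold, 32 passed it only there, 22 no longer passed it and 42 had the other sign, 29 of these with 1 library left out. The cause was not tested.

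DESeq2 and no filter called 186 and 11 genes in keratinocytes after co-culture (all 10 libraries in the fit, 4), 1947 and 1945 in mixed medium against activated T cells, 2368 and 2425 in co-cultured against activated T cells, and 87 and 141 in co-culture against mixed medium, where limma called 99 and 107 and a minimum of 10 counts 0. Members called in co-cultured against activated T cells were 4 by DESeq2, no filter and limma. With a minimum of 10 counts 3082 genes and 5 of 7 members were called in keratinocytes alone against mixed medium.

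With the replicate number as a replicate block, 2 genes and 0 members were called in keratinocytes and 7 members in keratinocytes alone against activated T cells, where Batf passed (-2.52, adjusted p = 0.00472 by edgeR). Deviations of same-numbered libraries correlated at 0.56 over 12515 genes and at 0.248 over 12666 genes. The labels tie the numbers to no culture.

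With 1 library left out, the lone library of a group is assumed to vary like the others. Calls then ranged from 0 to 1164 genes and 0 to 2 members in keratinocytes, from 24 to 594 genes and 0 to 2 members in mixed medium against activated T cells, from 266 to 1069 genes and 1 to 2 members in co-cultured against activated T cells, from 16 to 52 genes in co-culture against mixed medium, from 2394 to 3319 genes and 5 to 7 members in keratinocytes alone against activated T cells, and from 2218 to 3152 genes and 6 to 9 members against mixed medium.

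Log2 fold changes that changed sign in this way ranged, in keratinocytes after co-culture, from -0.33 to 3.07 for Irf4, -1.29 to 1.73 for Batf, -0.46 to 0.10 for Junb, -0.57 to 0.16 for Fos and -2.33 to 0.36 for Fosl1. In mixed medium against activated T cells they ranged from -0.39 to 0.25 for Batf and -0.94 to 0.69 for Bach2, and in co-cultured against activated T cells from -0.98 to 0.29 for Fos. In co-culture against mixed medium they ranged from -0.95 to 0.081 for Myc, -0.060 to 0.11 for Irf4 and -1.66 to 0.28 for Bach2, and for Myc in keratinocytes alone against activated T cells from -0.49 to 0.49. For the interaction they ranged from -0.40 to 3.04 for Irf4, -0.90 to 2.17 for Batf, -1.54 to 5.27 for Batf3, -0.70 to 4.01 for Fosl1 and -1.47 to 0.72 for Bach2. Fosl1 in co-culture against mixed medium ranged from -4.62 to 0. The 0 came from the fit without replicate 2 in mixed medium, which left no exon reads of Fosl1 in either group.

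With limma and a pseudocount of 1 and 0.1 the sign turned for Bach2 in mixed medium against activated T cells (-0.14 and -0.22), for Irf4 in co-culture against mixed medium (-0.019 and -0.022), for Myc in keratinocytes alone against activated T cells (-0.068 and -0.068), and in the interaction for Fosl1 (-0.57 and -0.41) and Bach2 (0.45 and 0.20). Scaling by library size turned Irf4 in co-culture against mixed medium (-0.034) and Myc in keratinocytes alone against activated T cells (-0.17), and unique reads turned the latter as well (-0.091). None of these values passed the test.

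Depth limits Batf3 in keratinocytes and Fosl1 in further cultured T cells, which had at most 6 and 3 exon reads in any library.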
